A study of Danio rerio with 11 samples.

Results

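The liver plasma protein genes are 9 zebrafish genes chosen by name, by a rule that uses no measured value: plg, f2, fga, fgb, fgg, serpinc1, tfa, rbp4 and fabp10a. The choice was made with earlier results of these data known. All 9 were found among the 30243 genes of the deposited files, by Entrez identifier and RefSeq symbol. Of them, 8 encode secreted plasma proteins, and fabp10a encodes an intracellular binding protein. They were measured by RNA sequencing of whole embryos at 48 hours after fertilisation, in 6 samples from aldh3a1 knockouts (aldh3a1_KO) and 5 wild-type (WT) samples. All were TG(fli1:EGFP) fish, in which the fli1 promoter drives a green fluorescent protein in blood vessels. The E3 medium could contain PTU, which suppresses pigment. Which samples received PTU, the nature of the aldh3a1 mutation and the number of embryos behind a sample are not given in the sources used here. Replicates are named as such in the labels with no statement that they came from separate clutches, so the p-values measure the spread between these samples, which may be technical.

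Hepatocytes make most of the proteins of blood plasma. Prothrombin, the product of f2, is cut to thrombin, which turns fibrinogen into the fibrin of a clot. Fibrinogen is built from pairs of the chains encoded by fga, fgb and fgg. Antithrombin, the product of serpinc1, inhibits thrombin, and plasminogen, the product of plg, is the precursor of plasmin, the enzyme that dissolves fibrin. Transferrin (tfa) carries iron, and retinol binding protein 4 (rbp4) carries vitamin A. The fatty acid binding protein gene fabp10a is a widely used marker of the zebrafish hepatocyte. At this stage the liver is a small bud beside the yolk, and the yolk syncytial layer, a multinucleate layer around the yolk, also secretes carrier proteins and lipoproteins.

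The aldh3a1_KO libraries held 9.22 to 17.2 M estimated counts, and the WT libraries 18.1 to 19.97 M. The 13 mitochondrially encoded genes took 5.01 to 25.9% of counts in aldh3a1_KO, with 25.9, 19.8 and 20.9% in aldh3a1_KO 1, 5 and 6, against 4.63 to 5.62% in WT. The targeted gene aldh3a1 had 1.95 to 5.08 CPM (counts relative to library size) in aldh3a1_KO and 4.39 to 7.88 CPM in WT (log2 fold change -0.62 ± 0.27 SE, n = 6 and 5, edgeR adjusted p = 0.0621), so transcripts of the gene were detected in every library. Of 22182 genes tested, 55.3% differed between the groups at an adjusted p under 0.05. The median gene stood at a log2 fold change of -0.12. CPM are scaled here by the trimmed mean of M-values, log2 fold changes are aldh3a1_KO over WT from edgeR's quasi-likelihood test, and adjusted p is over all genes tested.

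Among the 9 genes, plg and serpinc1 were higher in aldh3a1_KO, the fibrinogen chain genes, f2 and tfa did not pass the test, and rbp4 had a lower mean that missed the threshold. Of the 9, 8 passed the filter on low counts and fabp10a did not. The 2 that rose are 25.0% of those tested, where 26.0% of all genes tested were called higher, and none was called lower, where 29.3% of all genes were (3 of the 8 had an unadjusted p under 0.05, and in the DESeq2 Wald test the counts were likewise 2 and 0). The share of members called higher was thus near the background. Their median log2 fold change was 0.67, beside -0.12 over all genes. It was 0.39 without WT 5, 1.006 without WT 4 and 0.06 without aldh3a1_KO 1, 5 and 6.

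Among the 9 genes, plg had the largest fold change. In aldh3a1_KO 1 to 6, plg was at 119.7, 31.7, 74.2, 54.8, 166 and 94.2 CPM, and in WT 1 to 5 at 16.4, 10.3, 19.1, 26.7 and 10.4 CPM. Every aldh3a1_KO library lay above every WT library, as for 17.8% of all genes tested, and the lowest of them, aldh3a1_KO 2, was closest to the WT range. For plg the log2 fold change was 2.44 ± 0.40 (SE, n = 6 and 5, edgeR adjusted p = 0.000194), or 2.56 above the median gene. The 3 libraries with the highest mitochondrial share were also those with the highest plg. Without aldh3a1_KO 1, 5 and 6 the log2 fold change was 1.75 (adjusted p = 0.00299), so the difference was smaller but still past the threshold.

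**Figure D1:**
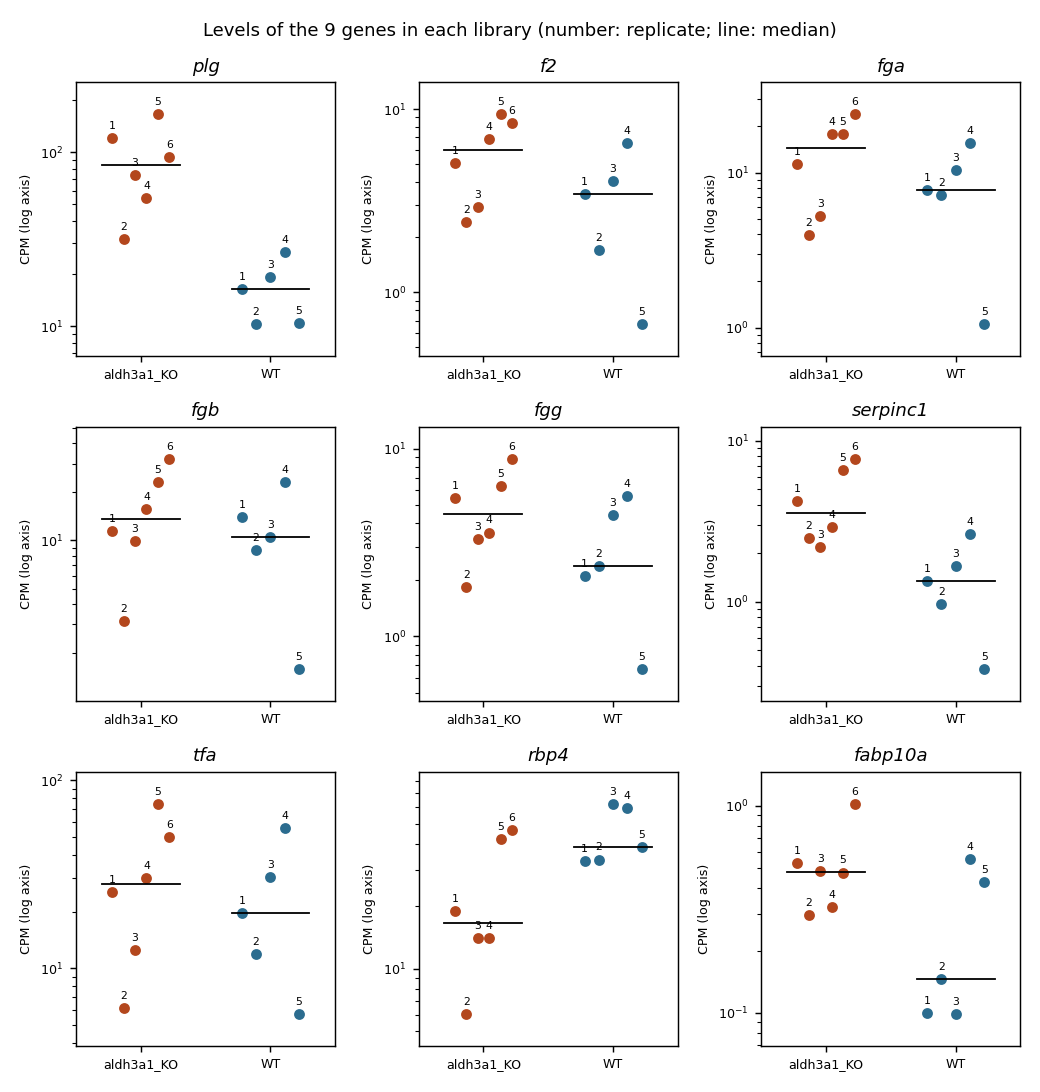
Scaled CPM (log axis) of each of the 9 genes, with 1 point per library numbered by replicate and a line at the group median, aldh3a1_KO on the left and WT on the right. The groups do not overlap for plg, whose aldh3a1_KO libraries sit between 31.7 and 166 CPM, and WT 5 is the lowest library for f2, fga, fgb, fgg, serpinc1 and tfa.

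The thrombin inhibitor gene serpinc1 had a lower level but moved the same way. It was at 4.22, 2.49, 2.18, 2.93, 6.55 and 7.72 CPM in aldh3a1_KO 1 to 6, and at 1.35, 0.968, 1.68, 2.62 and 0.382 CPM in WT 1 to 5. Of the aldh3a1_KO libraries, 4 lay above the highest WT library, and aldh3a1_KO 2 and 3 lay below WT 4. The log2 fold change of serpinc1 was 1.62 ± 0.47 (SE, n = 6 and 5, edgeR adjusted p = 0.00953). Without aldh3a1_KO 1, 5 and 6 it was 0.90, with an adjusted p of 0.139 from 3 aldh3a1_KO libraries, while the call held with any 1 library left out (adjusted p = 0.00432 to 0.0274). With the mitochondrially encoded genes removed from the counts, the log2 fold change was 1.64 for serpinc1 and 2.46 for plg, and both calls held.

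Prothrombin and the fibrinogen chains varied as much within a group as between groups. The prothrombin gene f2 was at 5.10, 2.43, 2.90, 6.90, 9.41 and 8.38 CPM in aldh3a1_KO 1 to 6, and at 3.45, 1.69, 4.04, 6.51 and 0.669 CPM in WT 1 to 5. Of the aldh3a1_KO libraries, 3 lay inside the WT range and 3 above it, and WT 5 was far below the other WT libraries. The log2 fold change of f2 was 0.83 ± 0.50 (SE, n = 6 and 5, edgeR adjusted p = 0.172), with a 95% interval of -0.24 to 1.90. It ran from 0.56 without WT 5 to 1.23 without WT 4.

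The fibrinogen alpha chain gene fga was at 11.3, 3.97, 5.24, 17.7, 17.8 and 23.9 CPM in aldh3a1_KO 1 to 6, and at 7.70, 7.16, 10.4, 15.5 and 1.05 CPM in WT 1 to 5. The beta chain gene fgb was at 11.4, 3.14, 9.92, 15.7, 23.1 and 32.1 CPM in aldh3a1_KO, and at 13.9, 8.66, 10.4, 23.05 and 1.58 CPM in WT. The gamma chain gene fgg was at 5.45, 1.84, 3.31, 3.58, 6.31 and 8.84 CPM in aldh3a1_KO, and at 2.10, 2.37, 4.44, 5.60 and 0.669 CPM in WT. The groups overlapped for all 3 chains, with aldh3a1_KO 2 lowest in its group and WT 5 lowest in its own. The ratio of the highest to the lowest library was 6.03 in aldh3a1_KO and 14.7 in WT for fga, whereas for plg it was 5.23 and 2.60.

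None of the 3 chains passed the test. The log2 fold change was 0.67 ± 0.55 for fga (SE, n = 6 and 5, edgeR adjusted p = 0.322, 95% interval -0.52 to 1.86). It was 0.46 ± 0.58 for fgb (edgeR adjusted p = 0.516, 95% interval -0.78 to 1.69) and 0.68 ± 0.48 for fgg (edgeR adjusted p = 0.250, 95% interval -0.36 to 1.71). These intervals are wide, and they hold both no difference and increases past 3-fold on the linear scale. With 1 library left out, fga ran from 0.37 to 1.004, fgb from 0.17 to 0.87 and fgg from 0.41 to 1.008, each lowest without WT 5 and highest without WT 4. Without aldh3a1_KO 1, 5 and 6 the log2 fold changes were 0.14 for fga, -0.23 for fgb and -0.015 for fgg.

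**Figure D2:**
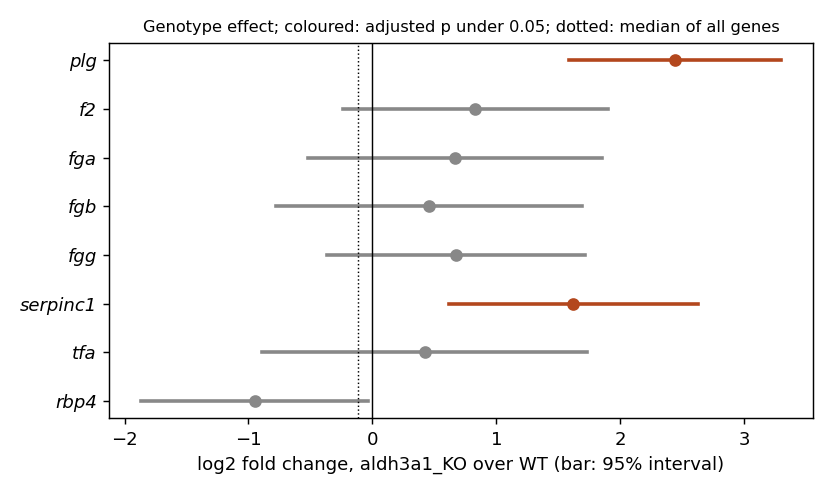
Log2 fold change of the 8 tested genes, aldh3a1_KO over WT, with bars for the 95% interval from edgeR, colour for an adjusted p under 0.05 and a dotted line at the median of all genes tested (-0.12). Only plg (2.44) and serpinc1 (1.62) are coloured, and rbp4 (-0.95) is the 1 tested gene left of the dotted line.

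In TPM, a level scaled for transcript length and library size, fga made up 21.5 to 38.9% of the summed fibrinogen level in aldh3a1_KO and 24.2 to 32.3% in WT. The share of fgb was 39.3 to 57.3% in aldh3a1_KO and 45.8 to 64.2% in WT, and that of fgg was 12.4 to 25.5% in aldh3a1_KO and 10.7 to 24.3% in WT. Thus fgb had the largest median share in both groups, and for each chain the ranges overlapped.

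Of the carriers, the transferrin gene tfa was at 25.4, 6.16, 12.4, 30.3, 74.9 and 49.9 CPM in aldh3a1_KO 1 to 6, and at 19.7, 11.9, 30.4, 55.7 and 5.68 CPM in WT 1 to 5. The groups covered almost the same range, from 6.16 to 74.9 CPM and from 5.68 to 55.7 CPM, and only aldh3a1_KO 5 exceeded the highest WT library. For tfa the log2 fold change was 0.42 ± 0.61 (SE, n = 6 and 5, edgeR adjusted p = 0.572, 95% interval -0.89 to 1.73), and -0.56 (adjusted p = 0.566) without aldh3a1_KO 1, 5 and 6. With 1 library left out it ran from 0.10, without aldh3a1_KO 5, to 0.96, without WT 4.

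The retinol carrier gene rbp4 was the 1 tested member with a lower mean in aldh3a1_KO. It was at 19.1, 6.04, 14.1, 14.05, 41.9 and 46.4 CPM in aldh3a1_KO 1 to 6, and at 32.95, 33.6, 62.3, 59.21 and 38.7 CPM in WT 1 to 5. Of the aldh3a1_KO libraries, 4 lay below every WT library, and aldh3a1_KO 5 and 6 lay within the WT range. For rbp4 the log2 fold change was -0.95 ± 0.43 (SE, n = 6 and 5, edgeR adjusted p = 0.0727, unadjusted p = 0.0432, 95% interval -1.86 to -0.03).

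Whether rbp4 passed differed between settings. It passed under 7 of 24 alternatives and missed the threshold under 17. The highest edgeR adjusted p was 0.186, without aldh3a1_KO 1. On log2(TPM + 1), where the median gene stood at -0.26, the log2 fold change was -1.41 (limma adjusted p = 0.00562), and 19.8% of all genes were called higher and 36.0% lower there. In TPM, 5 of the 6 aldh3a1_KO libraries lay below every WT library. Without aldh3a1_KO 6 the log2 fold change was -1.14 (edgeR adjusted p = 0.0387, where 27.0% of genes were called higher and 24.4% lower), and without aldh3a1_KO 1, 5 and 6 it was -1.95 (edgeR adjusted p = 0.00128, where 24.0% were called higher and 26.1% lower). It also passed with voom quality weights, where 29.5% of genes were called higher and 36.1% lower, and with the replicate number as a block, where 25.6% were called higher and 25.2% lower. The direction was the same under every alternative tried.

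The hepatocyte marker gene fabp10a was near the detection limit. It had 6, 5, 6, 5, 4 and 11 estimated counts in aldh3a1_KO 1 to 6, and 2, 3, 2, 11 and 9 in WT 1 to 5. The sum was 37 counts in aldh3a1_KO (exact Poisson 95% interval 26.1 to 51.0), or 0.492 CPM (0.347 to 0.679), and 27 counts in WT (17.8 to 39.3), or 0.265 CPM (0.175 to 0.386). These intervals overlap in part, which is not a test of a difference, and they cover counting error only. Without the filter on low counts, fabp10a had a log2 fold change of 0.97 ± 0.60 (SE) with an edgeR adjusted p of 0.198.

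On the per-length scale, rbp4 had the highest mean of the 9 transcripts in both groups. It was at 30.5 ± 18.4 TPM in aldh3a1_KO and 73.6 ± 25.0 TPM in WT (SD, n = 6 and 5). By median, plg (23.8 TPM) stood just above rbp4 (23.4 TPM) in aldh3a1_KO, and plg exceeded rbp4 in aldh3a1_KO 1, 2 and 3. By mean in aldh3a1_KO, rbp4 was followed by plg (25.3 ± 12.1 TPM), tfa (13.8 ± 10.1), fgb (8.76 ± 4.92) and fga (5.27 ± 3.03). The gamma chain gene fgg (2.96 ± 1.14 TPM), f2 (2.29 ± 1.15), fabp10a (1.88 ± 0.633) and serpinc1 (1.62 ± 0.664) closed that order. Each neighbouring pair in the aldh3a1_KO order had overlapping ranges.

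In WT, rbp4 was followed by tfa (12.3 ± 9.56 TPM), fgb (7.62 ± 4.97), plg (5.61 ± 2.24) and fga (3.95 ± 2.43). Below them stood fgg (2.27 ± 1.47 TPM), f2 (1.48 ± 0.987), fabp10a (1.199 ± 0.916) and serpinc1 (0.639 ± 0.366). The lowest WT value of rbp4, 50.7 TPM, exceeded the highest of tfa, 26.9 TPM, and all later neighbours overlapped. The 2 orders differed in the place of plg, which stood above tfa and fgb in aldh3a1_KO and below them in WT.

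These levels were also compared as ratios inside each library, into which the library's total does not enter. The ratio of rbp4 to plg, and those to the fibrinogen chains that follow, were chosen after the levels were seen and are given as a description. How often ratios of other gene pairs separate the groups was not counted. The TPM of rbp4 per TPM of plg was 0.761, 0.885, 0.891, 1.19, 1.199 and 2.28 in aldh3a1_KO 1 to 6, and 9.67, 15.5, 15.7, 10.4 and 17.5 in WT 1 to 5. The groups were far apart, since the lowest WT library held 9.67 rbp4 per plg and the highest aldh3a1_KO library 2.28. Of the summed TPM of the 9 genes, plg took 17.7 to 37.6% in aldh3a1_KO and 4.56 to 6.44% in WT, and rbp4 26.6 to 40.4% in aldh3a1_KO and 57.2 to 85.02% in WT.

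Set against the fibrinogen chains of the same library, plg was at 0.818 to 2.38 TPM per summed fibrinogen TPM in aldh3a1_KO and at 0.319 to 1.73 in WT. The overlap came from WT 5 alone, since the other WT libraries lay between 0.319 and 0.426. The ratio of rbp4 to the fibrinogen chains was 1.03 to 2.38 in aldh3a1_KO and 3.51 to 30.3 in WT, with no overlap, and the WT 5 value of 30.3 was the highest. Neither rbp4 nor any chain gene passed the test in the main fit. Of single genes tested, 17.8% had groups that did not overlap with aldh3a1_KO higher, and 20.0% with it lower. In WT 5 the summed fibrinogen level was 2.03 TPM, against 11.4 to 25.8 TPM in the other WT libraries. Thus WT 5 was low in the fibrinogen chains and not in rbp4, at 61.4 TPM.

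**Figure D3:**
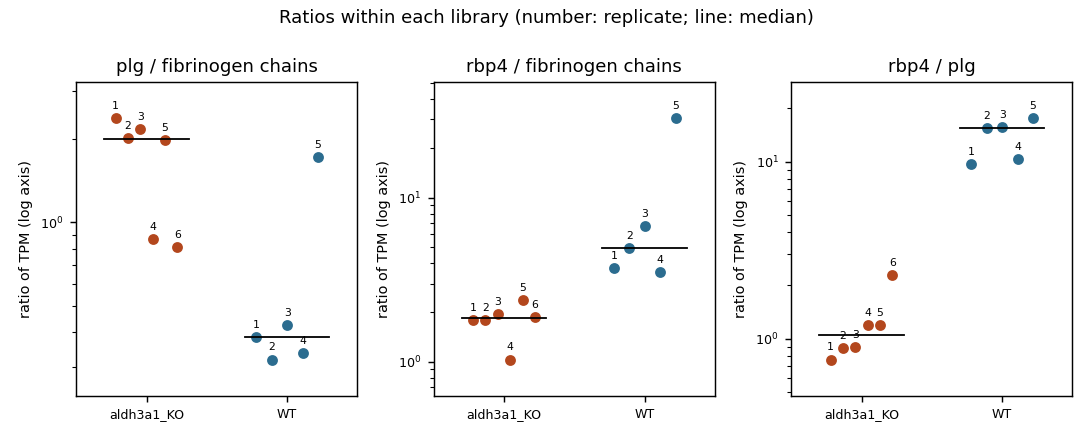
Ratios of TPM within each library (log axes), with 1 point per library numbered by replicate and a line at the group median, aldh3a1_KO on the left and WT on the right. The ratio of rbp4 to plg lies between 0.761 and 2.28 in aldh3a1_KO and between 9.67 and 17.5 in WT, and WT 5 stands apart in both ratios to the fibrinogen chains.

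Of the 9 genes, 6 had the closest correlations with each other from library to library. This set of 6 was not fixed in advance, so its correlations cannot test whether it stands apart from plg and rbp4. On log2(CPM + 0.5) with each group's mean removed, the 15 pairs among f2, fga, fgb, fgg, serpinc1 and tfa had Pearson correlations of 0.86 to 0.97 over the 11 libraries. Without WT 5 and aldh3a1_KO 2, the libraries farthest from their group mean for fibrinogen, the same pairs had 0.72 to 0.96. Outside the set, plg had a correlation of 0.85 with tfa and of 0.82 with rbp4 over the 11 libraries. These points share library, depth and embryo, and the correlations are given as a description.

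The other members were set against those 6 genes. With them, plg had correlations of 0.64 to 0.85 and rbp4 of 0.63 to 0.82 over the 11 libraries, while fabp10a, with few counts, had 0.15 to 0.40. Without WT 5 and aldh3a1_KO 2 these ranges were 0.35 to 0.73 for plg, 0.63 to 0.87 for rbp4 and 0.41 to 0.70 for fabp10a. The correlation of rbp4 with the 6 genes was 0.83 to 0.97 in the 6 aldh3a1_KO libraries, where the 6 genes had 0.79 to 0.98 among themselves. In the 5 WT libraries it was 0.36 to 0.70, where the 6 genes had 0.89 to 0.99, and the difference was not tested. In whole embryos, fewer hepatocytes and less RNA per hepatocyte cannot be told apart.

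**Figure D4:**
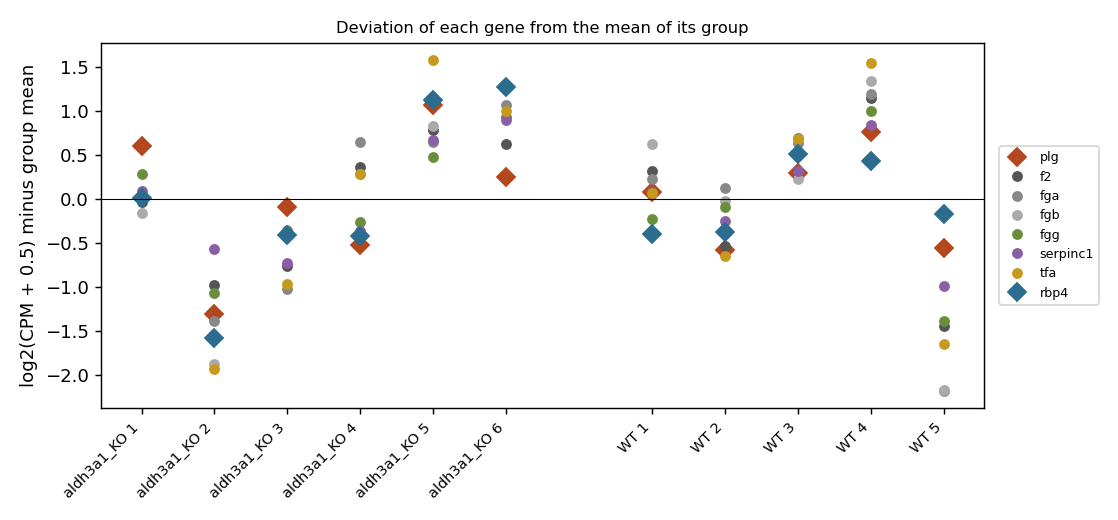
Deviation of the 8 tested genes from the mean of their own group, on log2(CPM + 0.5), for each library, with aldh3a1_KO on the left and WT on the right and diamonds for plg and rbp4. In aldh3a1_KO 2 all 8 genes lie below 0, in aldh3a1_KO 5 and 6 all lie above it, and in WT 5 the chain genes fga and fgb lie lowest while rbp4 is near 0.

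The genes most like the 3 fibrinogen chains, by the correlation with their mean deviation over 11 libraries, were taken from 15527 other genes with at least 2 CPM in both groups. They were c9 (r = 0.993), a complement component gene, the apolipoprotein genes apoc1 (r = 0.990), apoc2 (r = 0.987) and apoa2 (r = 0.977), and the fatty acid binding protein gene fabp1b.1 (r = 0.979). Of these, apoc2 and apoa2 also stand in the list of yolk syncytial layer markers. For apoc1 the range was 46.3 to 311 CPM in aldh3a1_KO and 13.2 to 277 CPM in WT, again with overlap. None of these 5 passed the test, with edgeR adjusted p of 0.369 to 0.750 and log2 fold changes of 0.21 to 0.66, and all 5 were below 0 without aldh3a1_KO 1, 5 and 6.

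The other clotting genes moved in both directions. Of 16 other coagulation factors and cofactors in the files, 13 were tested, 3 rose and 4 fell, which is 53.8% beside 55.3% of all genes, with a median log2 fold change of -0.24. Factor X (f10), which cuts prothrombin, was at 6.42, 3.55, 4.44, 5.73, 7.27 and 8.47 CPM in aldh3a1_KO 1 to 6, and at 23.1, 19.8, 30.5, 11.9 and 22.1 CPM in WT 1 to 5. No aldh3a1_KO library reached the lowest WT library, as for 20.0% of all genes tested, and the log2 fold change was -1.85 ± 0.27 (SE, edgeR adjusted p = 8.21e-05). The gene vkorc1, whose product recycles vitamin K, fell (log2 fold change -2.62 ± 0.51, edgeR adjusted p = 0.000679). Its counts were few, with 37 over the 6 aldh3a1_KO libraries and 322 over the 5 WT libraries. The gamma-glutamyl carboxylase gene ggcx, named after its value was seen, fell too (-1.02 ± 0.20, edgeR adjusted p = 0.000822).

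The factor XIII chain gene f13a1a.1, whose product cross-links fibrin, rose by a log2 fold change of 3.17 ± 0.39, and the von Willebrand factor gene vwf by 0.87 ± 0.16 (edgeR adjusted p = 3.32e-05 and 0.000599). The level of f13a1a.1 was low, with a mean of 2.36 CPM in aldh3a1_KO and 0.254 CPM in WT. The related gene f13a1b, named after its value was seen, was more abundant, at 8.11 CPM in aldh3a1_KO and 9.59 CPM in WT. It did not pass the test (log2 fold change -0.24 ± 0.33, edgeR adjusted p = 0.549). For vwf the adjusted p was 0.0546 on log2(TPM + 0.1). The cofactor gene f8 rose (0.78) and the tissue factor gene f3b fell (-0.64), both named after their values were seen, and these calls were lost under 3 (f8) and 12 (f3b) of 24 alternatives. Factor V (f5) was at -0.37 ± 0.45 and factor VII (f7) at 0.21 ± 0.76, with edgeR adjusted p of 0.502 and 0.826, and f7 turned negative under 9 of its 23 alternatives, from -0.0065 to -1.16. Factor IX (f9a) had 21 counts over the 6 aldh3a1_KO libraries and 3.50 over the 5 WT libraries, too few for a test.

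Of 7 anticoagulant genes tested besides serpinc1, 3 rose and 2 fell (71.4% called, beside 55.3% of all genes, median log2 fold change 0.19). Protein C (proca), which inactivates the cofactors of thrombin formation, was at 13.6, 2.37, 6.45, 5.27, 11.3 and 7.91 CPM in aldh3a1_KO 1 to 6, and at 0.650, 0.629, 0.838, 1.41 and 0.334 CPM in WT 1 to 5. All aldh3a1_KO libraries were above all WT libraries, and as for plg, aldh3a1_KO 1 and 5 were highest. The log2 fold change of proca was 3.32 ± 0.47 (SE, edgeR adjusted p = 7.46e-05), and 2.64 without aldh3a1_KO 1, 5 and 6.

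Another thrombin inhibitor of the serpin family, heparin cofactor II (serpind1), rose by 2.02 ± 0.30 on the log2 scale (edgeR adjusted p = 0.000112). Its level was 7.70 to 27.3 CPM in aldh3a1_KO and 3.93 to 4.50 CPM in WT. Thrombomodulin (thbd), which turns thrombin towards protein C, rose by 3.02 ± 0.54, and by 2.12 without aldh3a1_KO 1, 5 and 6. The gene of protein S (pros1), the cofactor of protein C, fell (log2 fold change -1.32 ± 0.25, edgeR adjusted p = 0.000585). So did serpina10a (-1.09), named after its value was seen. The related gene serpina10b rose (1.42 ± 0.34, edgeR adjusted p = 0.00311), and it is counted below with the other secreted liver proteins.

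Of 5 fibrinolysis genes tested besides plg, 1 rose and 1 fell (40.0% called, beside 55.3% of all genes, median log2 fold change -0.16). The plasminogen activator gene plaub was at 7.17 to 20.6 CPM in aldh3a1_KO and 1.35 to 3.63 CPM in WT (log2 fold change 2.46 ± 0.36, edgeR adjusted p = 9.22e-05). The plasminogen receptor gene plgrkt was lower, at 11.2 to 19.9 CPM in aldh3a1_KO and 22.02 to 39.2 CPM in WT (log2 fold change -0.95 ± 0.20, edgeR adjusted p = 0.00135). Of 3 thrombin receptor family genes tested, f2r fell (log2 fold change -2.70 ± 0.57) and f2rl2 rose (4.96 ± 0.61, and 3.7995 without aldh3a1_KO 1, 5 and 6), and the median was -1.32. That is 66.7% called, beside 55.3% of all genes. The level of f2r was low, with 12 counts over the 6 aldh3a1_KO libraries and 112 over the 5 WT libraries.

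**Figure D5:**
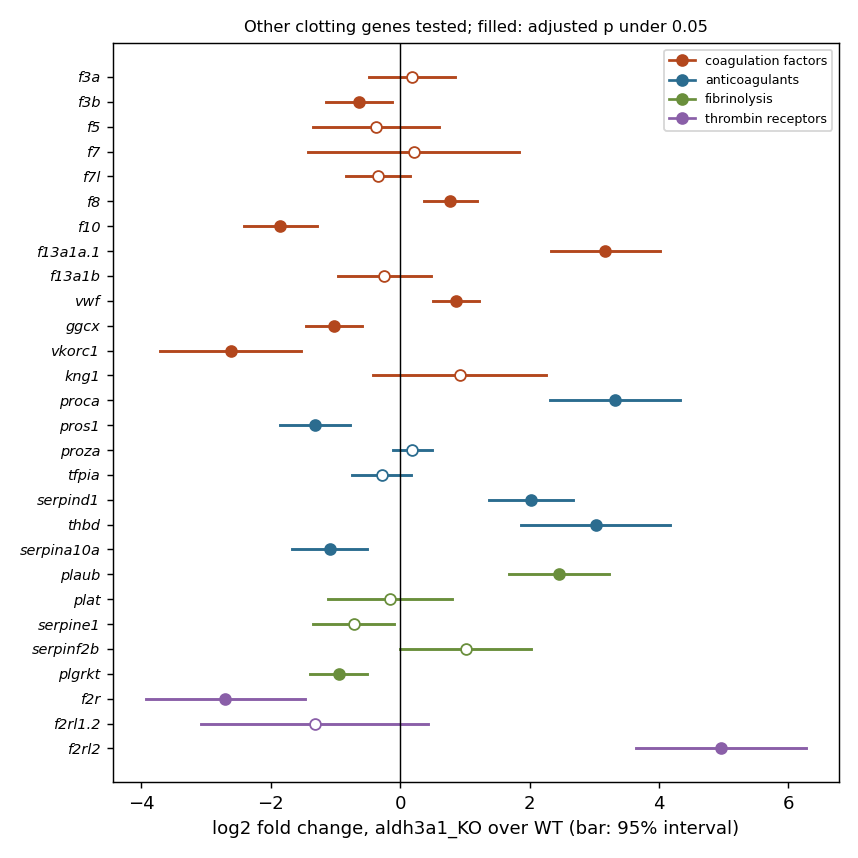
Log2 fold change of the 28 other clotting genes tested, aldh3a1_KO over WT, with bars for the 95% interval, colour for the list and filled points for an adjusted p under 0.05. Values run from -2.70 for f2r, which had few counts, to 4.96 for f2rl2. Filled points stand on both sides of 0 in the lists of coagulation factors, anticoagulants, fibrinolysis and thrombin receptors.

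Of 22 other secreted liver protein genes tested, 5 rose and 1 fell, or 27.3%, beside 55.3% of all genes, with a median log2 fold change of 0.66. The complement gene c8b (2.14 ± 0.34, edgeR adjusted p = 0.000158), the angiotensinogen gene agt (1.48 ± 0.35, edgeR adjusted p = 0.00272) and the serpin gene serpina10b (1.42 ± 0.34) rose, and the fibrinogen-like gene fgl1 fell (-1.71 ± 0.36, edgeR adjusted p = 0.00121). The transthyretin gene ttr, whose product binds retinol binding protein in plasma, had 0 counts in aldh3a1_KO and 5 in WT.

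Hepatocyte markers outside the 9 genes were also read. All 12 found in the files had counts, a low bar, since ttr had 0 counts in aldh3a1_KO and 5 in WT. Their summed level was 16.9 to 88.5 CPM in aldh3a1_KO and 8.46 to 56.6 CPM in WT. Of 9 tested, 2 were higher and 1 lower, where 26.0% of all genes were called higher and 29.3% lower. These values cannot settle whether the 9 genes report on hepatocytes. The yolk syncytial layer list was more abundant, at 107.9 to 777 CPM in aldh3a1_KO and 41.03 to 617 CPM in WT. Of its 10 tested genes, 1 rose (cts12) and 1 fell (mttp, a gene of lipoprotein assembly, -1.76 ± 0.46). Counts of mttp were few, with 33.8 over the 6 aldh3a1_KO libraries and 167 over the 5 WT libraries. The defining gene of this list, mxtx2, had a mean of 0.0591 CPM in aldh3a1_KO and 0.0288 CPM in WT. Like the fibrinogen chains, both lists were lowest in aldh3a1_KO 2 and WT 5 of their groups. So was the enterocyte list, at 15.9 to 70.9 CPM in aldh3a1_KO and 15.9 to 43.4 CPM in WT. The lists are not independent of each other, since apoa4b.1 stands in both the enterocyte and the yolk syncytial layer list. Of the genes most like fibrinogen, c9 stands in the hepatocyte list, and apoc2 and apoa2 in the yolk syncytial layer list. The part of these tissues in the levels of the 9 genes was not tested.

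Of 19 hepatocyte transcription factor genes tested, 8 rose and 5 fell (68.4% called, beside 55.3% of all genes, median log2 fold change 0.41). Many of these also act in other organs, such as kidney, eye and brain. The cut-domain gene onecut1 rose (1.34 ± 0.18, edgeR adjusted p = 5.76e-05), as did hnf1ba (1.47 ± 0.31) and the pioneer factor gene foxa1 (0.76 ± 0.16). The gene cebpa, a driver of hepatocyte maturation, fell (-1.64 ± 0.27, edgeR adjusted p = 0.000237), and its relatives cebpb (-1.35) and cebpd (-1.53, and -2.36 without aldh3a1_KO 1, 5 and 6), named after their values were seen, fell too. The liver bud genes prox1a (0.82 ± 0.34, edgeR adjusted p = 0.0548), hhex (-0.52 ± 0.29, edgeR adjusted p = 0.144) and foxa3 (-0.58 ± 0.41, edgeR adjusted p = 0.243) did not pass, though prox1a did under 12 and hhex under 4 of 24 alternatives. For hnf4a there were 22.3 counts in aldh3a1_KO and 87.03 in WT, too few for a test.

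Partners of the carriers were called lower more often than higher, as were all genes tested (29.3% lower and 26.0% higher). Of 10 genes tested in the iron transport list, 1 rose and 7 fell, with a median log2 fold change of -0.57. That is 80.0% called, beside 55.3% of all genes. That list held ftr82, a finTRIM gene and not an iron gene, in error, and without it 1 rose and 6 fell of 9. The transferrin receptor gene tfr1b fell (-3.20 ± 0.57, edgeR adjusted p = 0.000376, and -2.48 without WT 5 and aldh3a1_KO 2). Counts of tfr1b were few in aldh3a1_KO, with 39.1 over the 6 libraries, against 506 over the 5 WT libraries. The gene hjv, of hepcidin control, fell too (-1.87 ± 0.38), while the ferrireductase gene steap3 rose (1.67 ± 0.29).

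Of 11 retinol transport genes tested, 5 fell and none rose (45.5% called, median -0.43). Of all genes, 29.3% were called lower and 55.3% in either direction. The retinol esterifying enzyme gene lrata (-2.04 ± 0.40, edgeR adjusted p = 0.000790) and the retinoic acid binding gene crabp2a (-1.14 ± 0.25, edgeR adjusted p = 0.00146) fell. The calls of rbp5 (-0.59) and crabp2b (-0.57) were lost under 6 and 10 of 24 alternatives. Among 8 tested fatty acid binding protein genes, 1 rose and 2 fell (37.5% called, beside 55.3% of all genes, median -0.20). The paralogue of fabp10a, fabp10b, rose to 5.46 ± 1.58 CPM in aldh3a1_KO, against 2.06 ± 0.844 CPM in WT (SD, n = 6 and 5, log2 fold change 1.40 ± 0.31, edgeR adjusted p = 0.00168).

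Lists for neighbouring cell types were also counted, beside the 55.3% of all genes called. Of 8 bile duct and stellate cell genes, all of them also active in other tissues, 1 rose and 7 fell (100% called, median -1.75), among them hand2 (-3.32 ± 0.49, and -4.37 without aldh3a1_KO 1, 5 and 6) and anxa4 (-1.66 ± 0.22). Of 6 thrombocyte genes tested, 3 rose and none fell (50.0% called, median 0.67), with mpl at 2.11 ± 0.38. The calls of fermt3b and nfe2 were lost under 3 and 10 of 24 alternatives. Of 6 exocrine pancreas genes tested, 3 rose and none fell (50.0% called, median 1.303), with ela2l at 3.18 ± 0.63 and at 2.53 without aldh3a1_KO 1, 5 and 6. Of 6 enterocyte genes tested, 2 rose and 1 fell (50.0% called, median 0.25), with vil1 at -1.03 ± 0.30, and the call of cdx1b, one that rose, was lost under 8 of 24 alternatives. These 3 shares lie near that of all genes called in either direction. In the thrombocyte and pancreas lists, of 6 tested genes each, all calls were higher, where 26.0% of all genes were called higher.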

How the data were processed

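Per the submitters' processing notes, reads were trimmed with Trim Galore 0.6.4 and quantified with kallisto, its version given as 0.4.6, on build danRer11. The authors deposited, for each of 11 libraries, estimated counts (kallisto's expected counts, not whole) and TPM per Entrez gene. How transcripts were summed to genes is not given in the sources used here. Of 30243 identifiers, 25812 matched a symbol in a RefSeq table on assembly GRCz12tu, used for names only. Counts were rounded and tested in R 4.3.3 with edgeR 4.0.16 (filterByExpr, TMM, robust quasi-likelihood F test, two-sided). Limma 3.58.1 and DESeq2 1.42.0 served as alternatives. Levels are TMM-scaled CPM, SE comes from the F statistic, and intervals cover counting error only where called Poisson. Tables and plots used Python 3.11.15. The workflow was tested on simulated data.

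The 9 genes, the 14 gene lists and the libraries left out together were chosen with earlier results of these data known. Named genes are the 9, aldh3a1, from each list the 4 called genes ranked first by adjusted p, a preset group of clotting and liver genes, and the 5 genes most like fibrinogen. Promoter motifs were not analysed here.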

Additional observations from a re-analysis of the deposited data

Results flagged for a closer look

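In 5 of 148 tests, each on 1 gene in 1 group and covering the 9 genes and the named genes, Dixon's ratio of log2 levels marked a library as far from the others, where chance gives about 1 in 20. None of the 5 concerns the 9 liver genes. The kidney and liver factor gene hnf1ba was low in WT 2, at 4.74 CPM against 7.36 to 8.601 CPM in the other WT libraries (ratio 0.733). The gene hjv was low in aldh3a1_KO 5, at 0.477 CPM against 1.49 to 2.10 CPM (ratio 0.73), and mpl was high in aldh3a1_KO 1, at 4.13 CPM against 1.303 to 2.03 CPM (ratio 0.643). The elastase gene ela2l was at 0 CPM in WT 2, against 1.97 to 3.85 CPM (ratio 0.738). The factor IX gene f9a was at 0.151 CPM in WT 4 and at 0 in the other WT libraries, which gives a ratio of 1 by construction.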

How the results depend on the processing

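Over 24 alternatives plg kept its direction and its call, with log2 fold changes of 1.75 to 2.73 and adjusted p up to 0.00299. The members called numbered 2 higher and 0 lower, and 2 and 0 to 1 when 1 library was left out. With voom quality weights, limma on log2(TPM + 1), on log2(TPM + 0.1) and on log2(TPM + 1) without a filter, with the replicate block, and without aldh3a1_KO 6, 1 member was called lower, rbp4, at -1.20, -1.41, -1.45, -1.41, -1.38 and -1.14. When 1 library was left out, rbp4 ran from -1.14 to -0.63. Under 17 of the 24 alternatives rbp4 was not called. Without aldh3a1_KO 1, 5 and 6, a choice made after seeing the data, 1 member was higher and 1 lower. There rbp4 was at -1.95, serpinc1 at 0.90 and not past the threshold, and fgb (-0.23), fgg (-0.015) and tfa (-0.56) reversed. The cause was not tested. Without WT 5 and aldh3a1_KO 2, also chosen after seeing the data, 2 and 0 were called.

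Genes of the 14 lists called higher numbered 33 of 131 tested in the main fit, and 24 to 45 under the alternatives. Those called lower numbered 37, and 30 to 46. In the main fit 53.4% of the list genes were called, near the 55.3% of all genes tested. Of all genes, 26.0% were called higher and 29.3% lower. For the other named genes, 1410 values kept direction and call, 54 lost the call, 19 gained it and 19 reversed. For f7, 9 reversed: -0.44 with voom, -0.025 on log2(TPM + 1) with or without a filter, -0.0065 on log2(TPM + 0.1), -0.13 with the replicate block, -1.16 without aldh3a1_KO 1, 5 and 6, and, in the range with 1 library left out, -0.27 to 0.55. The others were genes most like fibrinogen. Without aldh3a1_KO 1, 5 and 6 these were c9 (-0.70), apoc1 (-0.28), apoc2 (-0.61), fabp1b.1 (-0.33) and apoa2 (-0.58). With the replicate block they were c9 (-0.0080), apoc2 (-0.0022) and apoa2 (-0.0045). For apoc2 they were also -0.075 with voom and, with 1 library left out, a range of -0.068 to 0.51.

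Deviations of libraries sharing a replicate number correlated at 0.02 to 0.18. Among numbers 1 to 5, only aldh3a1_KO 2 correlated best with the WT library of its own number. The labels do not say whether a shared number marks a shared clutch or batch, and these correlations cannot decide it. The fit with the replicate block left out aldh3a1_KO 6, and gave 11125 calls over all genes, against 11248 without the block and without that library. The fabp10a counts limit what can be said of that gene.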
